A study of Homo sapiens with 6 samples.

Results

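The ISG15 system was followed through its 6 core genes, which encode the modifier itself (ISG15), its activating enzyme (UBA7), its conjugating enzyme (UBE2L6), a pair of HERC ligases (HERC5 and HERC6) and the protease that removes it (USP18). The genes were chosen by symbol, and all 6 were found among the 60498 genes of the deposited table and among the 15126 genes that were analysed. RNA-seq came from SKOV3, an established ovarian cancer cell line, in 3 forms that differ at STING1, the receptor for the cyclic dinucleotide cGAMP. The WT/HAQ cells are the parental line, with a WT allele and an allele of the HAQ haplotype, which is named for the amino acids it introduces. The WT/- and HAQ/- cells are each a single clone, grown by limiting dilution after lentiviral CRISPR/Cas9 with a pair of guides flanking the STING1 coding sequence and puromycin selection, in which only the named allele was kept. Each line gave 1 control library and 1 cGAMP library, for which permeabilized cells took up cGAMP at 10 μg/mL for 30 min and then rested for 4 h in fresh medium. How the control cells were handled is not described in the sources used here. With 1 library in each of the 6 groups, a difference between lines cannot be assigned to the haplotype rather than to the clone, and no fold within a line has a replicate check.

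ISG15 is a small protein built of ubiquitin-like folds that is attached to lysines of other proteins through a chain of enzymes parallel to that of ubiquitin. UBA7 is its dedicated E1 and activates it at the cost of ATP, UBE2L6 is its main E2, and HERC5, which sits on ribosomes and reaches newly made proteins, is the main ISG15 ligase in human cells. HERC6 is a close relative of HERC5 and carries out that task in the mouse. USP18 cuts ISG15 from its targets and, apart from its protease activity, binds the interferon receptor chain IFNAR2 and dampens type I interferon signalling. Free ISG15 in human cells keeps USP18 from being degraded. All of these genes are classical interferon-stimulated genes, controlled through ISGF3, a complex with STAT2 and IRF9 that binds the interferon-stimulated response element (ISRE).

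Positions are given on GRCh38 with GENCODE release 44. ISG15 (ENSG00000187608) lies at chr1:1001138-1014540 on the plus strand, and its canonical transcript has 2 exons and 637 nt. UBA7 (ENSG00000182179) lies at chr3:49805209-49813953 on the minus strand, with 24 exons. UBE2L6 (ENSG00000156587) lies at chr11:57551656-57568284 on the minus strand, with 4 exons. The ligase genes are neighbours on the plus strand of chromosome 4, with HERC6 (ENSG00000138642) at chr4:88378739-88443097, HERC5 (ENSG00000138646) at chr4:88457119-88506163 and 14022 bp between them, and each canonical transcript has 23 exons. USP18 (ENSG00000184979) lies at chr22:18150118-18177397 on the plus strand, with 11 exons. Antisense or nested genes listed within ISG15 had 0 counts in every library, which for each allows up to 3 counts per library.

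The proximal promoters of the modifier and of both ligases are shown because ISG15 had the largest fold with cGAMP and the ligase genes are neighbours. RefSeq promoter windows (GRCh38.p14, 250 bases before to 50 after each start) were found for 4 of the 6 genes, ISG15, UBE2L6, HERC5 and HERC6. They were searched on both strands for the ISRE core, GAAA and GAAA with any 2 letters between them, which reads TTTC and TTTC on the other strand, and matches were allowed to overlap. In the ISG15 window there were 2 overlapping matches, 113 to 98 bases before the start, shown at chr1:1013359-1013424 on the plus strand. The RefSeq start used here, position 1013497, lies well inside the interval that GENCODE gives for the gene. In the HERC5 window there were 3 matches, all read on the minus strand, between 125 and 65 bases before the start, of which the 2 farthest from it overlap, shown at chr4:88456969-88457079 on the plus strand. The HERC6 stretch of the same length, chr4:88378628-88378738 on the plus strand, ends at the last base before the GENCODE gene and holds no match. It lies 224 to 114 bases before the RefSeq start, farther out than the HERC5 stretch at 150 to 40, so the printed ligase stretches are not at matched distances, and the HERC6 bases nearer to the start were searched but are not shown. Capitals mark the bases of a match.
ISG15: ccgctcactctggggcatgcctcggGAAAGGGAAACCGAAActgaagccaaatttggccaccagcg
HERC5: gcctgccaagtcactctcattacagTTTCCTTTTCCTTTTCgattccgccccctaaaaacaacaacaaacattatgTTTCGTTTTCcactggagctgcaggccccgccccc
HERC6: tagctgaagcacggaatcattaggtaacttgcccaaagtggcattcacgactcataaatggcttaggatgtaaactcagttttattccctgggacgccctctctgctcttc

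The whole HERC6 window and both UBE2L6 windows had 0 matches to the ISRE core, which was present in 3.57% of all 35116 windows. The core of the gamma-activated sequence, TTCNNNGAA, whose matches can share bases with those of the ISRE core, was found in 7.66% of all windows and in none of those of the 4 genes. A match is a description of letters, and its absence says only that these letters are not in the window.

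The libraries held 12444791 to 17608427 counts and 21186 to 21984 detected genes. Levels below are counts scaled for library size by edgeR's TMM factors, called normalized counts. The 95% counting intervals are exact Poisson limits for levels, Wilson intervals of the binomial share of counts for folds and level ratios, and delta-method intervals from the 4 counts for differences between folds. These cover counting error only and not the spread between cultures. The edited gene was measured in every library, with 669.1 normalized STING1 counts in WT/HAQ control, 352.8 in WT/- control and 212.9 in HAQ/- control, and 1780, 553.0 and 402.8 with cGAMP. Epithelial markers were present, all 7 of 7 in every library, with ERBB2 between 46463 and 69247 normalized counts. The markers PTPRC, CD3E, CD14 and LYZ of leukocytes had 0 to 4 counts per library, PECAM1 of endothelium 6.19 to 17.7 normalized counts, and COL1A1, a collagen gene, 792.0 to 1121.

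All 6 genes of the ISG15 system were raised by cGAMP in each of the 3 lines, where raised means at least 1.5-fold over the control library of the same line. Among all genes analysed, 12.8% were raised in WT/HAQ cells, 11.9% in WT/- cells and 6.75% in HAQ/- cells, and 3.11% were raised in all 3 lines. The median log2 fold of the 6 genes was 4.77 in WT/HAQ cells, 3.86 in WT/- cells and 2.96 in HAQ/- cells, beside an all-gene median of -0.01, 0.00 and -0.01. In RNA from whole cultures, a higher share of responding cells and more RNA per responding cell cannot be told apart.

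The modifier was the member with the largest fold in every line. ISG15 had 139.7 normalized counts in WT/HAQ control and 18883 with cGAMP. In WT/- it had 350.0 and 16952, and in HAQ/- 138.7 and 4940. The control libraries of WT/HAQ and HAQ/- held nearly the same ISG15 level, that of WT/- was higher, and the cGAMP library of HAQ/- stood well below the other 2. The log2 folds were 7.08 (6.85 to 7.30) for WT/HAQ, 5.6 (5.45 to 5.75) for WT/- and 5.15 (4.93 to 5.38) for HAQ/-, that is 135-fold, 48.4-fold and 35.6-fold. Ranked by fold among all genes, ISG15 was at position 13, 26 and 12.

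The enzymes that load ISG15 had the smallest folds of the 6 genes. UBA7, the E1, had 36.24 normalized counts in WT/HAQ control and 163.5 with cGAMP, 87.72 and 233.7 in WT/-, and 42.75 and 106.2 in HAQ/-. This is the least abundant gene of the system per length in every library, and its counting intervals are the widest of the 6 in every line, with log2 folds of 2.17 (1.68 to 2.66), 1.41 (1.05 to 1.77) and 1.31 (0.82 to 1.81). UBE2L6, the E2, was well expressed without cGAMP, with 529.5 normalized counts in WT/HAQ control and 2406 with cGAMP, 643.9 and 2411 in WT/-, and 537.4 and 1402 in HAQ/-. Its level with cGAMP was the same in WT/HAQ and WT/- within counting error, at a ratio of 1.0 (0.943 to 1.06), and its log2 folds were 2.18, 1.90 and 1.38.

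Both ligase genes were raised strongly, HERC5 more than HERC6 in WT/HAQ and WT/-. HERC5 had 805.3 normalized counts in WT/HAQ control and 30367 with cGAMP, 1375 and 31060 in WT/-, and 792.1 and 6639 in HAQ/-. HERC6 had 280.2 and 5566 in WT/HAQ, 507.7 and 4740 in WT/-, and 327.1 and 2351 in HAQ/-. For both genes the WT/HAQ and WT/- libraries with cGAMP lay close together, and that of HAQ/- lay below them while staying above all 3 control libraries. The log2 folds of HERC5 were 5.24 (5.14 to 5.33), 4.50 (4.42 to 4.57) and 3.07 (2.97 to 3.17), and those of HERC6 were 4.31 (4.15 to 4.48), 3.22 (3.09 to 3.35) and 2.85 (2.69 to 3.0). In HAQ/- cells, the intervals of the HERC5 and HERC6 folds thus met.

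USP18, the ISG15 protease, was low in control cells and had the second largest fold of the system in all 3 lines. It had 55.69 normalized counts in WT/HAQ control and 2436 with cGAMP, 68.13 and 2307 in WT/-, and 40.13 and 688.5 in HAQ/-. The log2 folds were 5.45 (5.09 to 5.81), 5.08 (4.74 to 5.42) and 4.10 (3.67 to 4.53), so the erasing enzyme had a larger fold than each enzyme that writes the mark, with an interval that overlapped that of HERC5 in WT/HAQ and not in the clones. USP18 has a near-identical copy, USP41, between which reads can be split by the counting. The expected counts of the pair add up to whole numbers within 0.01 in all 6 libraries, and USP41 held 0.257% to 4.73% of the sum.

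**Figure D1:**
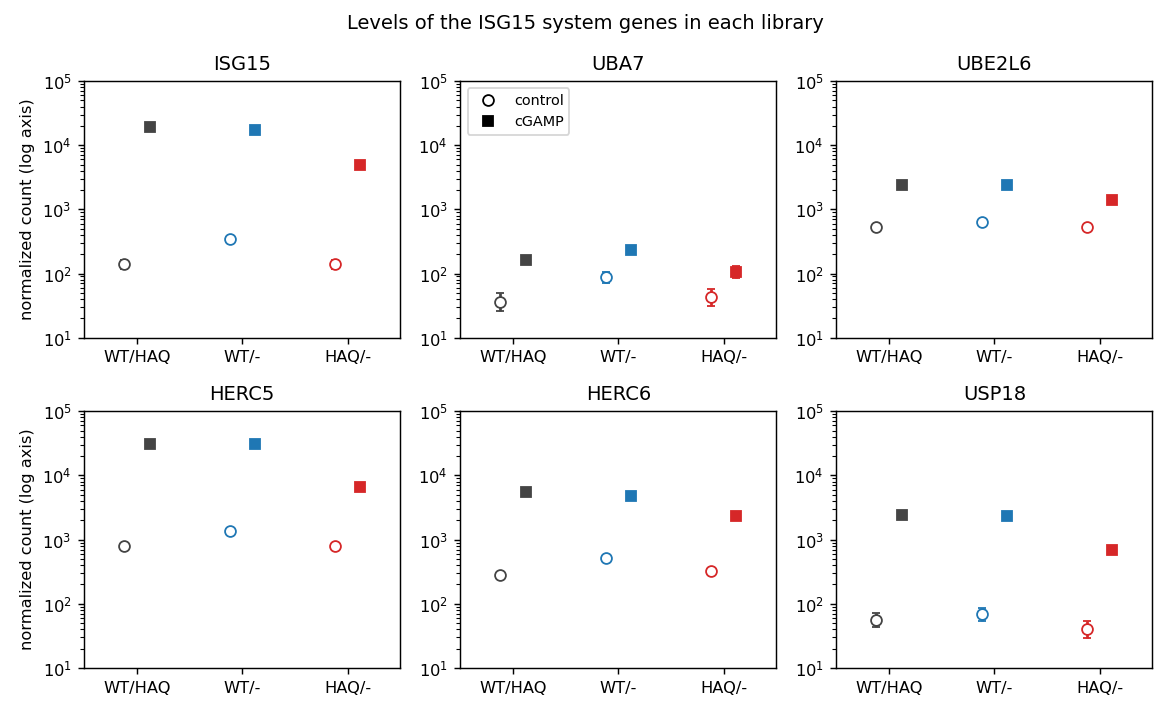
Normalized counts (log axis) of the 6 genes in each library, with open circles for control and filled squares for cGAMP libraries of the WT/HAQ, WT/- and HAQ/- lines and bars for exact Poisson 95% limits. For ISG15, HERC5 and USP18 the cGAMP points of WT/HAQ and WT/- nearly coincide, whereas that of HAQ/- stands at 4940, 6639 and 688.5.

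The response was also tested over the lines by edgeR's quasi-likelihood test, with the line as a block and adjustment over all 15126 genes. The 3 lines stood in for replicates of the cGAMP effect. The spread in this test is the difference in response between lines, which holds any effect of haplotype or clone, and not that between cultures. All 6 genes were higher with cGAMP in 3 of 3 lines and passed the test, beside 2.27% of all genes that passed as higher and 0.959% that passed as lower. The average log2 fold was 5.93 (SE 0.43, edgeR adjusted p = 0.00732, range over the alternatives 1.36e-24 to 0.171) for ISG15 and 4.94 (SE 0.26, edgeR adjusted p = 0.00388, range 3.6e-66 to 0.127) for USP18. HERC5 averaged 4.28 (SE 0.46, edgeR adjusted p = 0.0177, range 6.21e-11 to 0.273) and HERC6 3.45 (SE 0.30, edgeR adjusted p = 0.0114, range 7.49e-33 to 0.21). UBE2L6 averaged 1.83 (SE 0.16, edgeR adjusted p = 0.0119, range 4.56e-18 to 0.23) and UBA7 1.62 (SE 0.21, edgeR adjusted p = 0.0296, range 1.27e-05 to 0.308). In each range the low end is from another test, the DESeq2 Wald test, and the high end from edgeR without the WT/- line. Without the WT/- line none of the 6 genes passed in edgeR, with adjusted p between 0.127 and 0.308, and 0 of all 15126 genes passed there. All 6 had an unadjusted p under 0.05 in that fit, as did 1894 of all genes. UBA7 also failed without the WT/HAQ line (edgeR adjusted p = 0.0711), and UBA7 and HERC5 failed when the line was left out of the model as a block (edgeR adjusted p = 0.236 and 0.0615), where 0.383% of all genes passed as higher.

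**Figure D2:**
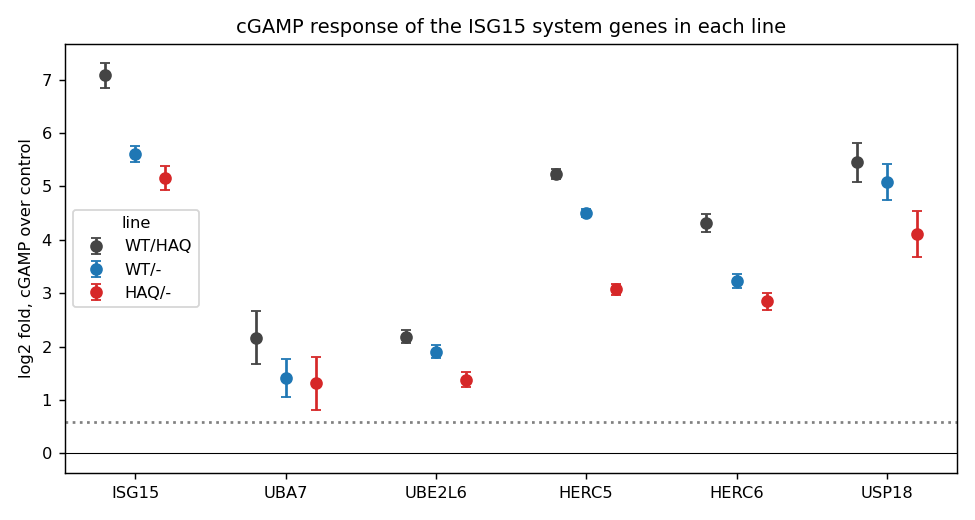
Log2 fold of each gene, cGAMP over control library, in WT/HAQ (grey), WT/- (blue) and HAQ/- (red), with 95% counting intervals and a dotted line at 1.5-fold. Every gene has its largest fold in WT/HAQ and its smallest in HAQ/-, and ISG15 and USP18 lead in each line.

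The question of the design, whether cells that keep the WT or the HAQ allele answer cGAMP differently, was addressed by comparing folds between lines, with intervals that cover counting error only. Only WT/- against HAQ/- compares clones that each keep a single allele. WT/HAQ is the parental line with both alleles, so its contrasts with a clone also differ in the number of STING1 alleles and in editing. All 6 genes had a larger fold in WT/HAQ than in HAQ/- by more than 1.5-fold, as did 12.4% of all genes. The difference in log2 fold was largest for HERC5, at 2.17 (2.03 to 2.31), and smallest for UBE2L6, at 0.80 (0.61 to 0.99). For UBA7 it was 0.86 (0.16 to 1.56), an interval that reaches below 1.5-fold. Between the clones, 2 of 6 genes had a larger fold in WT/- than in HAQ/- by at least 1.5-fold, beside 11.9% of all genes. These were HERC5, with a difference of 1.43 (1.30 to 1.56), and USP18, with 0.98 (0.43 to 1.53). The other four differed by 0.52 (0.33 to 0.71) for UBE2L6, 0.44 (0.17 to 0.72) for ISG15, 0.38 (0.17 to 0.58) for HERC6 and 0.10 (-0.51 to 0.71) for UBA7, an interval that includes 0 and also the threshold. Between WT/HAQ and WT/-, 4 of 6 genes had the larger fold in WT/HAQ by at least 1.5-fold, beside 8.58% of all genes, with 1.48 (1.21 to 1.75) for ISG15, 1.09 (0.88 to 1.30) for HERC6, 0.76 (0.15 to 1.37) for UBA7 and 0.74 (0.62 to 0.86) for HERC5. These contrasts share libraries and are not independent of each other.

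A fold depends on the control level as well as on the level reached, and the WT/- clone started higher. Without cGAMP, 4 of 6 genes were at least 1.5-fold higher in WT/- than in WT/HAQ, beside 13.0% of all genes. The ratio was 2.51 (2.08 to 3.02) for ISG15, 2.42 (1.68 to 3.49) for UBA7, 1.81 (1.58 to 2.08) for HERC6 and 1.71 (1.57 to 1.85) for HERC5. UBE2L6 and USP18 both had a ratio of 1.22, with an interval of 0.875 to 1.71 for USP18. In HAQ/- control cells none of the 6 genes was past 1.5-fold in either direction against WT/HAQ, where 7.37% of all genes were higher and 8.6% lower, and the ratios ran from 0.721 (0.494 to 1.05) for USP18 to 1.18 (0.781 to 1.78) for UBA7. After thinning all libraries to the smallest total, USP18 was past 1.5-fold lower (log2 -0.70).

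With cGAMP, HAQ/- had the lowest level of each of the 6 genes. Between WT/- and WT/HAQ 0 of 6 genes were past 1.5-fold, with ratios from 0.852 for HERC6 to 1.43 (1.16 to 1.76) for UBA7, while 14.6% of all genes were higher in WT/- and 9.89% lower. In HAQ/- all 6 genes were lower than in WT/HAQ by at least 1.5-fold, beside 13.3% of all genes. The ratio to WT/HAQ was 0.219 (0.213 to 0.225) for HERC5, 0.262 (0.253 to 0.270) for ISG15 and 0.283 (0.259 to 0.308) for USP18. It was 0.422 for HERC6, 0.583 for UBE2L6 and 0.649 (0.507 to 0.832) for UBA7. With total counts in place of TMM, UBA7 was short of 1.5-fold (log2 -0.54) and 5 of 6 genes were past it. All 6 were also lower in HAQ/- than in WT/- with cGAMP, beside 19.0% of all genes, with ratios from 0.214 for HERC5 to 0.582 for UBE2L6. Between these clones 5 of 6 genes were already lower in HAQ/- by at least 1.5-fold without cGAMP, beside 15.3% of all genes, with ratios of 0.396 for ISG15, 0.487 for UBA7, 0.576 for HERC5, 0.589 for USP18 and 0.644 for HERC6 (4 of 6 with total counts, where HERC6 fell short). For UBA7 the ratio was thus similar without and with cGAMP, at 0.487 (0.346 to 0.687) and 0.454 (0.355 to 0.582). The gain of HERC5 in normalized counts with cGAMP in HAQ/- was 19.8% of the gain in WT/HAQ, against 25.6% for ISG15, 27.2% for USP18, 38.3% for HERC6, 46.1% for UBE2L6 and 49.9% for UBA7. In WT/- these gains ran from 80.1% of that in WT/HAQ for HERC6 to 115% for UBA7.

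**Figure D3:**
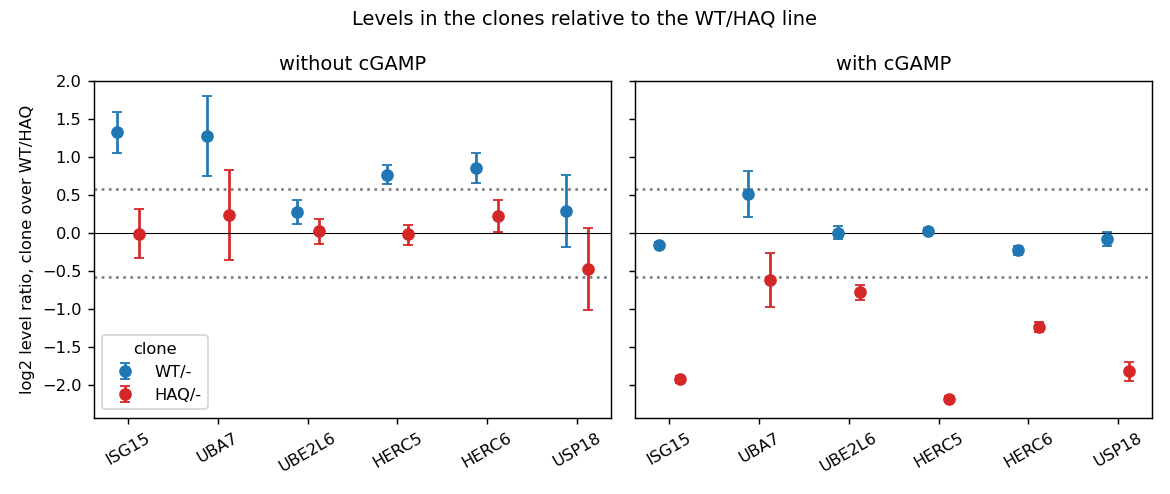
Log2 ratio of each gene's level in the WT/- clone (blue) and the HAQ/- clone (red) to WT/HAQ, without cGAMP (left) and with cGAMP (right), with 95% counting intervals and dotted lines at 1.5-fold. Without cGAMP the WT/- points of ISG15, UBA7, HERC5 and HERC6 are above the upper line, and with cGAMP all 6 HAQ/- points are below the lower line.

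The interferon genes IFNB1 and IFNL1 also had their lowest level with cGAMP in HAQ/-, much closer to its control library than was the case for ISG15, and their part in the differences was not tested. STING1 with cGAMP had 1780 normalized counts in WT/HAQ against 553.0 in WT/- and 402.8 in HAQ/-, so that WT/- lay nearer to HAQ/- than to the parental line, and its log2 fold was 1.41 in the parental line, 0.65 in WT/- and 0.92 in HAQ/-. IFNB1, the gene of interferon beta, had 4.42 normalized counts in WT/HAQ control and 1259 with cGAMP, 1.87 and 2583 in WT/-, and 5.23 and 16.42 in HAQ/-. IFNL1, a type III interferon gene, had 3.54 and 1497 in the same order of libraries for WT/HAQ, 3.73 and 2181 for WT/-, and 6.11 and 18.61 for HAQ/-. In HAQ/- cells the log2 fold was 1.65 for IFNB1 and 1.61 for IFNL1, both from low counts, and 5.15 for ISG15. How these folds are related was not tested. Cell type markers moved as well. PECAM1 was past 1.5-fold in WT/HAQ, from 6.19 to 13.31 normalized counts with a counting interval of the log2 fold that includes 0 (-0.16 to 2.37), and not in the clones. The summed level of the epithelial markers went from 112873 to 92754 normalized counts in WT/HAQ cells, from 88064 to 72616 in WT/- cells and from 91874 to 87378 in HAQ/- cells, with KRT7, KRT19 and PAX8 past 1.5-fold in WT/HAQ, KRT7 and PAX8 in WT/- and none in HAQ/-. Among all genes, 12.3%, 8.77% and 5.76% were lowered past 1.5-fold in WT/HAQ, WT/- and HAQ/-. None of the epithelial markers was at 0 in a library, and 0 of 7 passed edgeR's test over the lines. An unadjusted p under 0.05 was found for 3 of them, beside 3820 of all 15126 genes. DESeq2 called 2, KRT7 and PAX8, beside 1355 of all genes. The part of these markers in the results was not tested.

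Levels of different genes can be compared only per length, here as normalized counts per kilobase of the canonical transcript. Without cGAMP, the order in WT/HAQ and HAQ/- was UBE2L6, HERC5, ISG15, HERC6, USP18 and UBA7, and the E2 held 43.5% and 43.8% of the summed per-length level of the 6 genes. In WT/- control ISG15 and UBE2L6 were level, at a per-length ratio of 1.04. With cGAMP the order was ISG15, HERC5, UBE2L6, HERC6, USP18 and UBA7 in all 3 lines. The modifier then made up 68.8% of the sum in WT/HAQ cells, 66.5% in WT/- cells and 65.6% in HAQ/- cells, against 22.0%, 33.0% and 21.7% in the control libraries.

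The shares of ISG15 and USP18 with cGAMP were alike in the 3 lines although the summed level was not. The summed counts of the 6 genes went from 0.0119% to 0.376% of all counts in WT/HAQ cells, from 0.019% to 0.347% in WT/- cells and from 0.0126% to 0.108% in HAQ/- cells. With cGAMP, USP18 held 3.04%, 3.1% and 3.13% of the per-length sum, and there were 22.6, 21.4 and 20.9 ISG15 transcripts per USP18 transcript by this measure. The lines differed more in the enzymes of the chain. The HERC5 level per length was 5.87 times that of HERC6 in WT/HAQ with cGAMP and 7.05 times in WT/-, but 3.04 times in HAQ/-, close to the 2.60 of HAQ/- control cells. UBE2L6 held 9.73% of the sum in HAQ/- with cGAMP, against 4.58% and 4.94% in the other 2 lines. The ratio of ISG15 to UBE2L6 per length went from 0.505 to 15.0 in WT/HAQ cells, from 1.04 to 13.5 in WT/- cells and from 0.494 to 6.74 in HAQ/- cells. These are values of single libraries and have no test.

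**Figure D4:**
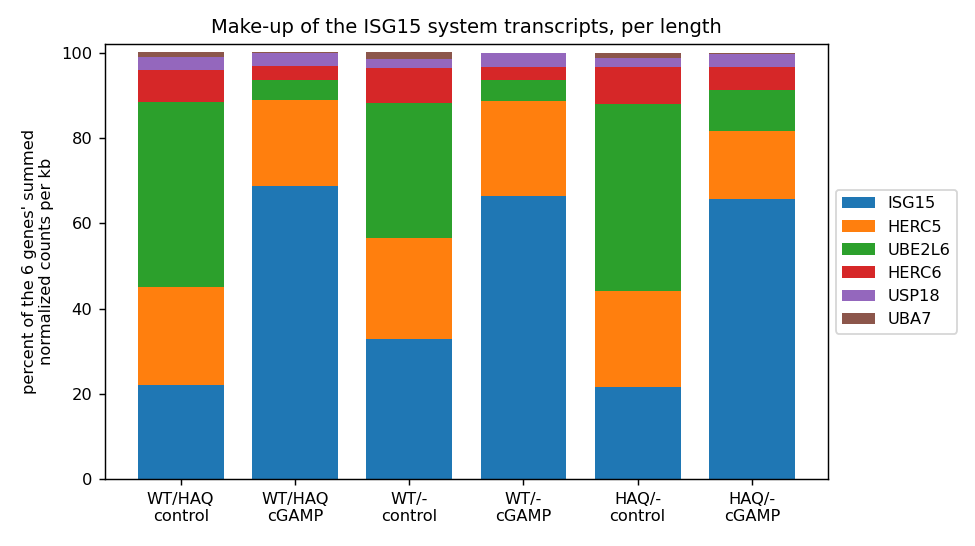
Share of each gene in the summed normalized counts per kilobase of the 6 genes, one bar per library, in percent. ISG15 takes 21.7% to 33.0% in the control libraries and 65.6% to 68.8% in the cGAMP libraries, while UBE2L6 shrinks to 4.58%, 4.94% and 9.73%.

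Of the other genes that attach, remove or sense ISG15, 1 of the 9 analysed was raised in all 3 lines, beside 3.11% of all genes. This was TRIM25, a RIG-I regulating ligase that can also transfer ISG15, which went from 4810 to 7483 normalized counts in WT/HAQ cells, 5236 to 9908 in WT/- cells and 4174 to 7265 in HAQ/- cells. Its average log2 fold was 0.79 (SE 0.08, edgeR adjusted p = 0.0157), higher in 3 of 3 lines. USP2, a protease with reported activity on ISG15, was lowered past 1.5-fold in WT/HAQ and HAQ/- (log2 -0.90 and -1.08), not in WT/- (0.00), and missed the test at an average log2 fold of -0.67 (edgeR adjusted p = 0.174). The log2 folds of the ligase ARIH1 (HHARI), of USP5, USP13, USP14, USP16 and USP21, and of the integrin chain ITGB2, which with ITGAL forms the receptor for secreted ISG15, ran from -0.28 to 0.27 over the 3 lines. ITGAL had at most 2 counts in a library and was not analysed.

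Calls in the related enzyme families are given beside the 2.27% of all genes that passed edgeR's test as higher and the 0.959% that passed as lower. Of all 15126 genes, 3820 had an unadjusted edgeR p under 0.05 and 1355 were called by DESeq2. Of 9 other E1 enzymes or subunits and 12 other E2 enzymes, 0 were raised in any line and 0 passed edgeR's test in either direction (3 at an unadjusted p under 0.05 and 1, UBE2Z, by DESeq2), and their medians lay between -0.09 and 0.08. Among the 14 other modifiers UBD (FAT10) was raised in WT/- alone, from 8.40 to 74.80 normalized counts (log2 3.15, 2.16 to 4.15). WT/HAQ had 0 UBD counts in both libraries and HAQ/- 0 and 1. UBD reached the mean-count filter through WT/- alone, so its edgeR adjusted p of 0.0729 is no test over lines. HERC1, HERC2, HERC3 and HERC4, relatives of the ISG15 ligases, had log2 folds from -0.58 (HERC4 in WT/HAQ) to 0.31 (HERC3 in WT/HAQ), and none was past 1.5-fold in any line or passed edgeR's test (1 at an unadjusted p under 0.05 and 0 by DESeq2). Among 27 other USP proteases analysed, 1 was raised in WT/HAQ (USP9X) and 0 in the clones, 2, 1 and 1 were lowered in WT/HAQ, WT/- and HAQ/-, and 0 passed edgeR's test (10 at an unadjusted p under 0.05 and 1, USP36, by DESeq2).

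Of 11 genes around USP18's second task, interferon signalling, 5 were raised in all 3 lines, beside 3.11% of all genes. They include STAT2 and IRF9, parts of ISGF3. STAT2 had log2 folds of 3.24, 2.55 and 1.80 (average 2.54, SE 0.28, edgeR adjusted p = 0.0188) and IRF9 2.84, 1.38 and 2.33 (average 2.16, SE 0.28, edgeR adjusted p = 0.0296), in the order WT/HAQ, WT/- and HAQ/-. IRF7, which drives interferon genes, had 3.0, 2.29 and 2.22 (average 2.5, SE 0.17, edgeR adjusted p = 0.00698). IFNB1 and IFNL1, at the levels given above, also passed, higher in 3 of 3 lines (edgeR adjusted p = 0.0165 and 0.0173). The receptor chains IFNAR1 and IFNAR2 and the kinases JAK1 and TYK2, on which USP18 acts or which lie beside it, had log2 folds between -0.14 and 0.37, and none passed or had an unadjusted p under 0.05. SKP2, a part of the ubiquitin ligase that degrades USP18, was past 1.5-fold in WT/HAQ only (0.72, 0.44 to 0.99), with an edgeR adjusted p of 0.154. IRF3, the factor that STING1 activates, was lower in 3 of 3 lines, with log2 folds of -0.56, -0.56 and -0.34 (average -0.49, SE 0.08, edgeR adjusted p = 0.0458).

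Among 13 analysed genes whose proteins are reported ISG15 targets, 5 were raised in all 3 lines and passed the test as higher, and IRF3 passed as lower, beside 3.11% of all genes raised in all 3 lines and 2.27% passing as higher. These 5 are themselves antiviral genes. The RNA-activated kinase gene EIF2AK2 (PKR) had log2 folds of 2.15, 1.83 and 1.44, and the sensor gene RIGI 5.86, 4.92 and 4.81. IFIH1 (MDA5) had 6.64, 5.41 and 4.60, MX1 had 7.0, 5.23 and 5.69, and IFIT1 had 8.05, 6.76 and 5.73. No other analysed gene of this list was past 1.5-fold in all 3 lines. Over the 8 lists, 98 of 101 genes were analysed, of which 13 were raised in WT/HAQ cells, 13 in WT/- cells and 11 in HAQ/- cells, beside 12.8%, 11.9% and 6.75% of all genes, and 4, 1 and 2 were lowered, beside 12.3%, 8.77% and 5.76% of all genes.

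**Figure D5:**
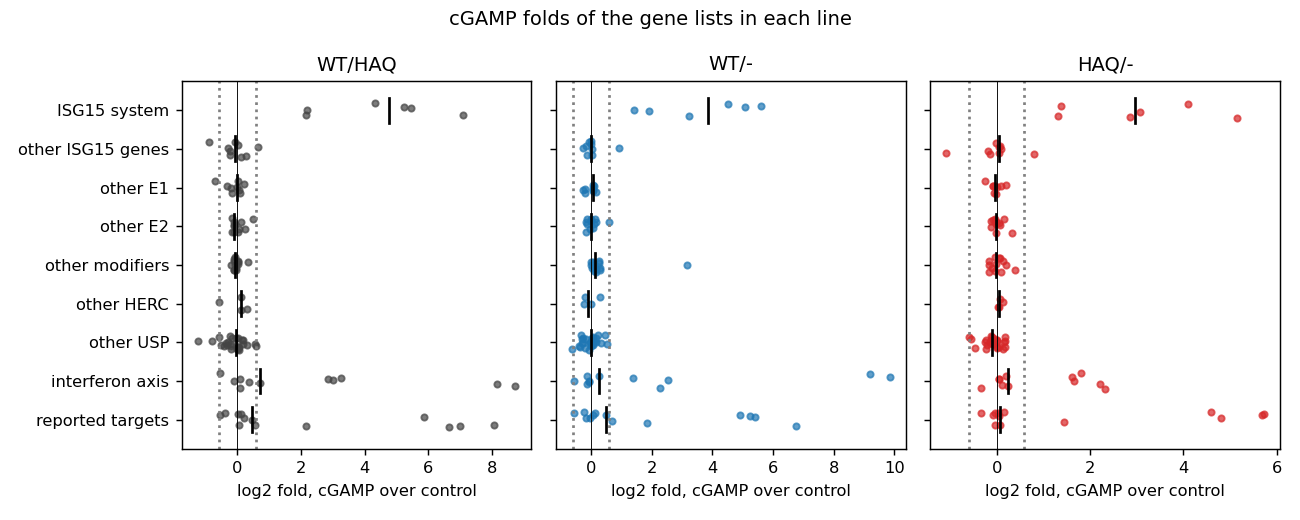
Log2 fold with cGAMP of each analysed gene of the ISG15 system and of 8 related lists, by line, with a black bar at each list's median and dotted lines at 1.5-fold. All 6 genes of the ISG15 system lie right of the upper line in every panel (horizontal scales differ), whereas the other E1, E2 and HERC genes lie within or at the lines apart from MOCS3 in WT/HAQ.

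The nearest protein-coding gene on each side of each member was also examined. Of 10 neighbours outside the 6 genes, 8 were analysed and 3 were raised in all 3 lines, beside 3.11% of all genes, and 1 of these 3, HES4, passed edgeR's test. HES4, a transcriptional repressor gene 966 bp from the left end of the GENCODE interval of ISG15, and farther from the RefSeq start used for the promoter, on the opposite strand, had 312.9 and 2320 normalized counts in WT/HAQ, 161.5 and 1418 in WT/-, and 117.8 and 706.0 in HAQ/- (average log2 2.88, SE 0.12, edgeR adjusted p = 0.0028, higher in 3 of 3 lines). Its RefSeq promoter window had 0 matches to the ISRE core. AGRN, on the other side of ISG15, had log2 folds of 0.34, 0.13 and 0.19. SERPING1, which encodes a complement inhibitor and lies 29.1 kb from UBE2L6, had 2.29, 1.54 and 0.88 (-0.05 to 1.81) with an edgeR adjusted p of 0.0739, and PPM1K, 94.0 kb from HERC6, had 2.93, 2.67 and 0.99 with 0.0566. PYURF beyond HERC5 had -0.23, 0.10 and 0.24, and INKA1 and TRAIP beside UBA7 and TUBA8 beside USP18 had intervals that included 0 in every line. SMTNL1 beside UBE2L6 and GGTLC3 beside USP18 were too low to be analysed.

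The genes most like each member over the 6 libraries were found by the Euclidean distance between log2 levels centred on their mean, as a description. Nearest to ISG15 was IFIT3, at 0.32, with log2 folds of 7.10, 5.70 and 5.55, followed by OAS1 at 0.74 and IFIH1 at 0.87. UBE2L6 lay near IFI35 at 0.18, TDRD7 at 0.19 and RPS6KC1 at 0.24, and UBA7 near PARP10 at 0.40, SERPING1 at 0.46 and PAK3 at 0.49. HERC6 lay near OAS3 at 0.43, PLEKHA4 at 0.55 and DHX58 at 0.55, and farther from HERC5, at 1.35. HERC5 had its nearest genes at 0.72 (APOL6), 0.73 (DUOXA1) and 0.73 (RP11-609D21.3), and USP18 at 0.75 (ZC3HAV1), 0.78 (RIGI) and 0.83 (SAMD9L). The closest pair among the 6 genes themselves was UBA7 and UBE2L6, at 0.86, and no member had another member among its 3 nearest genes.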

How the data were processed

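The authors deposited 1 table of expected counts per Ensembl gene (estimated counts, not normalized) for 6 poly(A) RNA-seq libraries. The submitters' processing notes name STAR, RSEM and the build GRCh38/hg38; versions and the annotation are not given in the sources used here. The 92.74% to 93.31% of values that were whole (within 0.01) and the rest were rounded to whole counts. The analysis kept genes whose mean count reached 10, TMM factors ran from 0.94 to 1.05, and normalized counts refer to a common library size, the geometric mean over the libraries. A count below 3 was replaced by 3 in folds. The edgeR 4.0.16 quasi-likelihood test (R 4.3.3) used the line as a block, which leaves 2 residual degrees of freedom. Benjamini-Hochberg adjustment was over all 15126 genes at 0.05. Nothing says that the lines are biological replicates of a condition. Its p-values set the average response against the differences between lines in response, not against a spread between cultures. The edgeR step was tested on simulated counts with the same fold in every line, and the Wilson interval on Poisson counts. Folds that differ between lines, as those of the members do, were not simulated. Alternatives were DESeq2 1.42.0 (test and size factors), total counts, thinning to the smallest total, floors and prior counts, other folds and filters, no block, and each line left out. Transcript lengths came from GENCODE, which holds 56434 of the 60498 identifiers. Other steps used matplotlib 3.10.9, scipy 1.17.1, pandas 2.3.3 and numpy 2.4.6 under Python 3.11.15. The members and lists were chosen with earlier results of these data known. The text names the members, STING1, every gene of the other-ISG15, other-HERC and interferon lists, genes of the other lists that were past 1.5-fold in all lines or passed edgeR, the 3 genes most like each member and the nearest protein-coding neighbours; UBD, USP9X, USP36, UBE2Z, MOCS3 and the markers that moved were named after their values were seen. Protein sequences were not analysed here, and some genes of the lists are not reported here.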

Additional observations from a re-analysis of the deposited data

How the results depend on the processing

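No group had a replicate, so no fold within a line could be tested, and the test over lines has 2 residual degrees of freedom. Under all alternatives for scaling, depth, floor and threshold that were run, all 6 genes of the ISG15 system stayed raised in each line. The count of the 6 genes passing edgeR ranged from 0 without the WT/- line to 6 without the HAQ/- line. Of all genes, 0 passed without WT/-, where 1894 had an unadjusted p under 0.05. Without HAQ/-, 8.48% of all genes passed as higher and 8.64% as lower. DESeq2 called 6 of the 6 genes, beside 5.1% of all genes as higher and 3.85% as lower. No paired analysis by replicate number was possible because each group has 1 library; without the line as a block, 4 of the 6 genes passed. With total counts, 5 of the 6 genes were past 1.5-fold lower in HAQ/- than in WT/HAQ with cGAMP. Thinning put 1 of the 6 genes, USP18, in place of 0, past 1.5-fold between HAQ/- and WT/HAQ control cells. With total counts the log2 ratio of HERC5 between WT/- and WT/HAQ with cGAMP turned from 0.03 to -0.03, because that scaling leaves out the TMM factors. The share of all genes was counted only at 1.5-fold with the main scaling, so the list counts that follow have no background. Of the list genes, 22 in WT/HAQ and 23 in WT/- were raised at 1.2-fold. Lowered were, in WT/HAQ, 7 with total counts, 1 at 2-fold and 15 at 1.2-fold; in WT/-, 2 with total counts, 0 at 2-fold and 10 at 1.2-fold; in HAQ/-, 1 with DESeq2 size factors, 1 at 2-fold and 5 at 1.2-fold. The ISG15 log2 fold in WT/HAQ was 7.31 after thinning. With USP41 counts added, an alternative chosen after seeing the data, the USP18 folds stayed within their counting error. Among the 6 genes UBA7 had the widest counting interval of the fold in every line.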
